A study of Mus musculus with 41 samples.

Results

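Lists of CUT&Tag peaks from post-ischemia macrophages (PIM) were compared, that of lactylated lysine 18 of histone H3 (H3K18la) and that of trimethylated lysine 4 of the same histone (H3K4me3). Both lists were merged, and a merged region was classed as both when at least 1 bp of either mark overlapped the other, as H3K18la-only or as H3K4me3-only. Regions within 2000 bp of any annotated transcription start site (TSS) were promoter regions and the others were distal. On chromosomes 1 to 19 and X, 32066 H3K18la peaks and 25448 H3K4me3 peaks gave 39865 regions, beside 117116 regions when all 24 peak lists of the series were merged. PIM were CD45+CD11b+F4/80+CD64+ cells that were sorted from the calf muscle of C57BL/6 mice (C57Bl6/J in the methods) 2 days after the femoral artery had been ligated and excised. The mice were female and 8 to 12 weeks old, and whether cells of several animals were pooled is not given in the sources used here. The gate does not part recruited from resident macrophages. Each mark was profiled in 2 of the 41 samples, whose coverage the authors combined into 1 list.

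CUT&Tag directs a transposase with an antibody to DNA beside a histone modification, so that cut fragments pile up where the modification lies. H3K4me3 is laid down at active and poised promoters, above all at promoters rich in CpG dinucleotides, and distal sites usually carry little of it. H3K18la is a histone modification derived from lactate, the end product of glycolysis, and it was first described in macrophages that had turned to glycolysis. Macrophages in injured muscle clear debris and later support repair, and transcription factors such as PU.1, C/EBP and AP-1 are known to open their enhancers.

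Sequences at the maxima are shown to let the searched letters be seen in place, and they do not stand for their classes. The 6 windows below hold 300 bases around the highest point of a peak and were chosen after their letters had been seen. The first 5 come from the region of largest signal in its class, among those called in fewer than 20 lists, whose window held TGANTCA, the letters bound by AP-1 factors. The Nek6 window was required to hold C/EBP letters as well and the Fth1 window PU.1 letters. The last one comes from the H3K4me3-only promoter region of largest signal that held letters of ETS or SP factors, at the ribosome biogenesis gene Rrs1. Capitals mark matches, on either strand, to TGANTCA (AP-1), TTGCNNAA (C/EBP), GAGGAAGT (PU.1) and CCGGAAGT (ETS factors of housekeeping promoters). All windows are given on the plus strand of mm10.
Distal H3K18la-only, 26796 bp from Gpc1, chr1:92799730-92800029: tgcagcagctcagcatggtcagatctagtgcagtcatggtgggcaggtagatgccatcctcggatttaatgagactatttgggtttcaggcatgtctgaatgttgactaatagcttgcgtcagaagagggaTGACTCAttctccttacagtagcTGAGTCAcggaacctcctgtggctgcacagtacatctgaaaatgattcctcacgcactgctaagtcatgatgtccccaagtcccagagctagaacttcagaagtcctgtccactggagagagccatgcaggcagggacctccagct
Distal H3K18la-only, 36193 bp from Nek6, chr2:38472775-38473074: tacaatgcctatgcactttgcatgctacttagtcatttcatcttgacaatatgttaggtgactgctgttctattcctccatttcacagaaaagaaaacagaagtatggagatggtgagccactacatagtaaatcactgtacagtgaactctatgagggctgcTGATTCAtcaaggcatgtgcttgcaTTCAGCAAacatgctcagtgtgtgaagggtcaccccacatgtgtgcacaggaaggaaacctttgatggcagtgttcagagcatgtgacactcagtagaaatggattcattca
Distal with both marks, 20591 bp from Fth1, chr19:9954478-9954777: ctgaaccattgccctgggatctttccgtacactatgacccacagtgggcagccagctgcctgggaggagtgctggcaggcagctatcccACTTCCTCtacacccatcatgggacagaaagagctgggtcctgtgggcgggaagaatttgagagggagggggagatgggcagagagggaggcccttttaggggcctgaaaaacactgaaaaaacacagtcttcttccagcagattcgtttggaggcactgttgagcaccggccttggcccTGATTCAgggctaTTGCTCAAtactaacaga
Promoter with both marks, Ahnak, chr19:8983283-8983582: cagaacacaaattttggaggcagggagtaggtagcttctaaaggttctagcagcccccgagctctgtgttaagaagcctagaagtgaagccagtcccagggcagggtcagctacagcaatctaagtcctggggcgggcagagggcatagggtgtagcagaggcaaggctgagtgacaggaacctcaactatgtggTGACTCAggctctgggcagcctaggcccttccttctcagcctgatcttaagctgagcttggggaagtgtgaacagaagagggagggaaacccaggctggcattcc
Promoter H3K18la-only, in an intron of Ms4a1, chr19:11261055-11261354: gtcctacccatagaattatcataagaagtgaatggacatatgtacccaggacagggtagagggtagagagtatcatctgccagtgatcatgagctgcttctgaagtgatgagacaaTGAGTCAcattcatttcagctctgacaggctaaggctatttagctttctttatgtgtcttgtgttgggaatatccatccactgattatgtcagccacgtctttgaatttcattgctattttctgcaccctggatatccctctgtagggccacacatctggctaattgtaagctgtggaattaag
Promoter H3K4me3-only, Rrs1, chr1:9545180-9545479: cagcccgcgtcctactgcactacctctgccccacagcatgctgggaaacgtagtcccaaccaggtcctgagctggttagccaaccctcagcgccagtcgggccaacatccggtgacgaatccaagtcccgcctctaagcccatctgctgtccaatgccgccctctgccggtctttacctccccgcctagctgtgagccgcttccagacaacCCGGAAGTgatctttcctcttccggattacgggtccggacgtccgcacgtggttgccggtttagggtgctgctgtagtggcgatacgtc
The first 4 windows lay outside protein-coding genes and the Ms4a1 window held no exonic base, whereas 72 bases of the Rrs1 window were exonic. The Rrs1 window held 22 CpG dinucleotides and a GC content of 61.3%. The other 5 held 0 to 4 CpG dinucleotides at a GC content of 42.7 to 55.3%.

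The 2 marks met mostly at promoters and parted mostly at distal sites. Of 18548 promoter regions, 9138 (49.3%, 95% Wilson interval 48.5 to 49.99) carried both marks, 6932 (37.4%, 36.7 to 38.1) carried H3K4me3 only and 2478 (13.4%, 12.9 to 13.9) carried H3K18la only. Of 21317 distal regions, 6318 (29.6%, 29.0 to 30.3) carried both marks, 12625 (59.2%, 58.6 to 59.9) carried H3K18la only and 2374 (11.1%, 10.7 to 11.6) carried H3K4me3 only. H3K18la-only regions were thus more numerous than H3K4me3-only regions at distal sites and less numerous at promoters. Counted by peaks, 63.4% of H3K4me3 peaks overlapped H3K18la and 52.9% of H3K18la peaks overlapped H3K4me3. The marks shared 32.1 Mb of the 102.0 Mb covered by either list, or 31.4%. With only the 5000 peaks of largest signal in each list, 22.5% of promoter and 6.18% of distal regions carried both marks and 89.3% of distal regions carried H3K18la only. With peaks at or above the median maximum signal, these shares were 37.8%, 15.3% and 78.6%. H3K4me3-only was then the largest promoter class, with 3419 regions against 1264 with both marks under the first setting and 5868 against 4733 under the second. Both lists were cut before classing, so a shared region could lose the peak of 1 mark to the cut and change class. In bulk nuclei, marks on the same chromatin and marks in different cells of the sort cannot be told apart. There was 1 list per mark, so these values have no replicate spread, no test was possible, and all intervals cover counting error only.

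**Figure D1:**
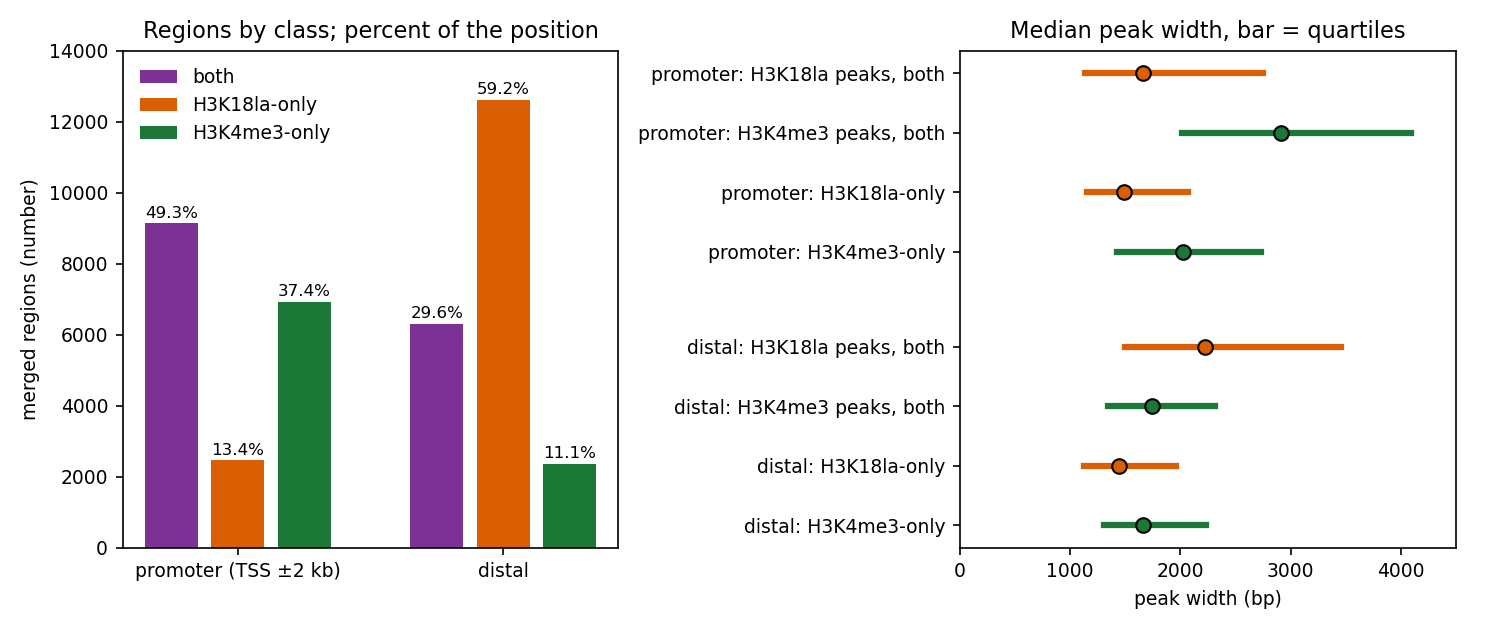
Left, number of merged PIM regions (y axis) with both marks, H3K18la only or H3K4me3 only at promoters and at distal sites, with the percent of the position above each bar. Right, median peak width in bp (points) with quartiles (bars) for H3K18la (orange) and H3K4me3 (green) peaks. H3K18la-only regions were 59.2% of distal regions and 13.4% of promoter regions, and the wider of the 2 marks at shared regions was H3K4me3 at promoters and H3K18la at distal sites.

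H3K18la-only promoter regions differed from the other promoter classes in the kind of TSS they lay at. A TSS of a protein-coding transcript lay within 2000 bp of 33.6% of them (31.7 to 35.5), against 81.5% (80.6 to 82.2) of promoter regions with both marks and 89.9% (89.2 to 90.6) of H3K4me3-only promoter regions. The remaining regions lay at TSS of noncoding genes or of noncoding transcripts of protein-coding genes. Distal H3K18la-only regions lay far from promoters, a median of 31035 bp from the nearest TSS of a protein-coding transcript (quartiles 12538 and 74327 bp), and 47.0% of them overlapped the body of a protein-coding gene. The nearest H3K4me3 peak lay a median of 10556 bp away, 685 of the 12625 (5.43%) had H3K4me3 within 1000 bp, and 30.6% had it within 5000 bp.

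Where both marks were present, their extents were ordered in opposite ways at promoters and at distal sites. At promoters the median H3K18la peak spanned 1663 bp (quartiles 1135 and 2754) and the median H3K4me3 peak 2916 bp (2018 and 4093), a log2 ratio of medians of -0.81. The ratio was -0.23, and H3K18la lay wholly inside H3K4me3 in 34.6% of shared promoter regions instead of the 53.9% given below, when each list was limited to its 5000 peaks of largest signal. At distal sites the median H3K18la peak spanned 2223 bp (1498 and 3459) and the median H3K4me3 peak 1741 bp (1342 and 2317). The H3K18la bases lay wholly inside H3K4me3 in 53.9% of shared promoter regions (52.9 to 54.9), and the H3K4me3 bases lay wholly inside H3K18la in 12.4% (11.7 to 13.0). At shared distal regions H3K4me3 lay wholly inside H3K18la in 45.1% (43.8 to 46.3), and H3K18la lay wholly inside H3K4me3 in 17.5% (16.5 to 18.4). Of the bases marked in shared promoter regions, 65.0% of those of H3K4me3 and 83.3% of those of H3K18la were shared. In shared distal regions these shares were 86.4% and 62.6%.

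**Figure D2:**
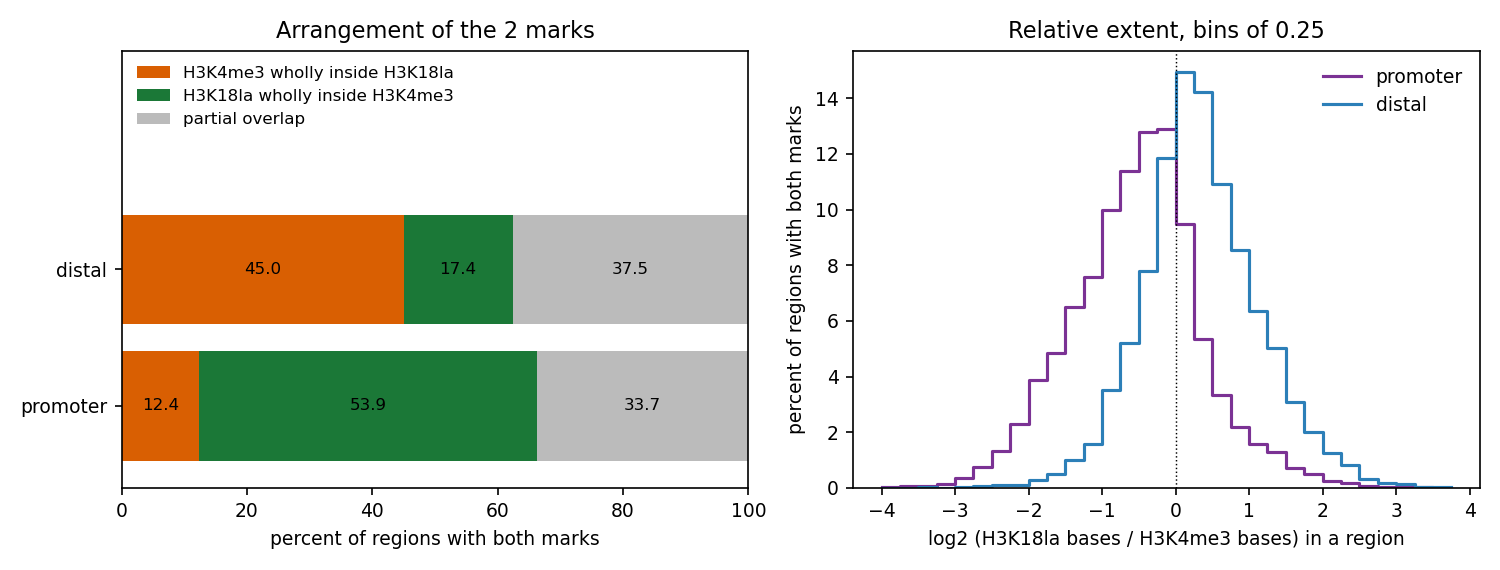
Left, percent of shared regions in which either mark lay wholly inside the other or in which they overlapped in part. Right, percent of shared regions (y axis) by the log2 ratio of H3K18la to H3K4me3 bases (x axis, bins of 0.25) at promoters (purple) and distal sites (blue). The median log2 ratio was -0.48 at promoters and 0.30 at distal sites.

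Peaks of either mark were narrower where the other was missing. H3K18la-only regions had a median width of 1490 bp at promoters and 1441 bp at distal sites, and H3K4me3-only regions had 2024 and 1660 bp. A shared region usually held 1 peak of each mark, in 84.1% of promoter and 93.4% of distal cases. H3K18la was split into 2 or more peaks along a single H3K4me3 peak in 12.8% of shared promoter regions and in 1.60% of shared distal ones. The reverse, with H3K4me3 split along 1 H3K18la peak, held in 2.45% and 4.76%.

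The height of the peaks followed the same division. The maximum signal of a peak is its highest fragment coverage, which was not scaled for depth and is compared here only within a list. H3K4me3 peaks reached a median of 367 in shared promoter regions, 168 in H3K4me3-only promoter regions, 108 in shared distal regions and 75 in H3K4me3-only distal regions. H3K18la peaks were highest at shared distal regions, with a median of 101, followed by 75 at shared promoters, and 52 and 50 at H3K18la-only distal and promoter regions. Among promoter H3K4me3 peaks, 38.2% (36.7 to 39.7) of those in the lowest quartile of maxima overlapped H3K18la and 83.4% (82.2 to 84.5) of those in the highest did. Among distal H3K18la peaks, the share with H3K4me3 went from 13.1% (12.2 to 14.1) in the lowest quartile to 65.1% (63.7 to 66.5) in the highest. Median width was larger in the highest quartile than in the lowest, from 1643 to 3371 bp for promoter H3K4me3 and from 1388 to 2874 bp for distal H3K18la, and a wide peak meets another more easily. The part of width in these shares was not tested.

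At promoters the difference in extent lay mostly downstream. In 4580 shared promoter regions with 1 peak of each mark and the TSS of 1 protein-coding gene, the maxima of the marks lay close together, with a median offset of -2 bp along transcription (quartiles -111 and 79 bp). The downstream edge of H3K18la lay at a median of -598.5 bp from that of H3K4me3 (quartiles -1361.25 and -118.5 bp, negative values being upstream), and it reached further downstream in 15.7% of regions. The upstream edge of H3K18la lay a median of 269 bp inside that of H3K4me3. Over 5627 genes with both marks and no other protein-coding TSS within 5000 bp, H3K4me3 covered most genes 900 bp downstream of the TSS (86.8%) and H3K18la 200 bp upstream of it (62.8%). At 1000 bp downstream H3K18la covered 51.0% of these genes and H3K4me3 86.2%. H3K27ac, an acetylation of active promoters and enhancers, was narrower and covered most genes at the TSS itself, at 77.6%.

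**Figure D3:**
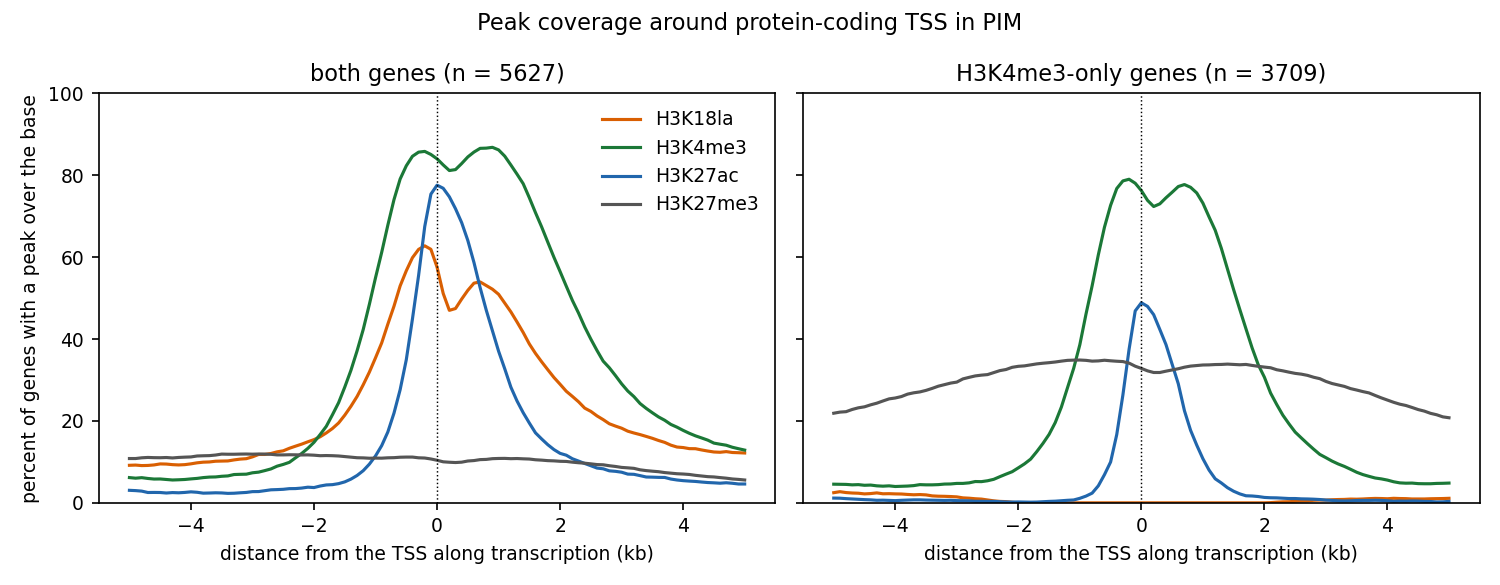
Percent of protein-coding genes with a peak over each base (y axis) against the distance from the TSS along transcription (x axis, kb) for 5627 genes with both marks and 3709 genes with H3K4me3 only. H3K4me3 reached at most 86.8% and 79.1% and was narrower in the second set (56.5% and 30.7% at 2000 bp downstream), H3K27ac reached 77.6% and 48.9%, and H3K27me3 stood at 10.4% and 32.8% at the TSS.

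The other marks profiled in PIM separated the classes as well, and they played no part in defining them. H3K27ac overlapped 89.3% (88.6 to 89.9) of promoter regions with both marks and 51.1% (49.9 to 52.3) of those with H3K4me3 only, a difference of 38.1 percentage points (interval 36.8 to 39.5). H3K27me3, the mark of Polycomb repression, overlapped 10.2% (9.61 to 10.8) and 35.8% (34.6 to 36.9). H3K18la-only promoter regions carried H3K27ac in 25.4% (23.7 to 27.1) and H3K27me3 in 8.76% (7.71 to 9.93) of cases. H3K4me3-only promoters comprised 46.2% with H3K27ac alone of these marks, 30.8% with H3K27me3 alone, 4.93% with both and 18.05% with neither. The H3K27ac difference was smaller when both lists were cut to their stronger peaks before classing. H3K4me3-only regions can then have an H3K18la peak that the cut left out. The difference was 4.66 points among the 5000 peaks of largest signal in each list (99.7% against 95.03%) and 15.3 points among peaks with at least the median maximum. Under the same settings H3K27me3 overlapped 11.99% and 15.6% of H3K4me3-only promoter regions, beside 7.99% and 8.92% of those with both marks, so that difference was smaller too. H3K27ac was profiled in 1 PIM sample.

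At distal sites H3K27ac overlapped 67.6% (66.4 to 68.7) of regions with both marks, 21.4% (20.7 to 22.2) of H3K18la-only regions and 7.20% (6.23 to 8.31) of H3K4me3-only regions. H3K27me3 overlapped 8.23% (7.58 to 8.93), 6.40% (5.99 to 6.84) and 28.6% of these classes and was thus most frequent at H3K4me3-only regions. Most distal H3K18la-only regions, 73.1%, carried neither of these marks, and so did 65.4% of distal H3K4me3-only regions. The share of distal H3K18la-only regions with H3K27ac was 90.7% when each list was limited to its 5000 peaks of largest signal. Among peaks with at least the median maximum it was 57%. Distal regions with both marks had 98.9% and 92.3% under these settings. Each list was cut before classing, so H3K18la-only then means that no H3K4me3 peak of the cut list overlapped. Shared regions were also wider than the others, with a median of 2572 bp against 1441 bp for distal H3K18la-only regions, and the part of width in these shares was not tested.

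**Figure D4:**
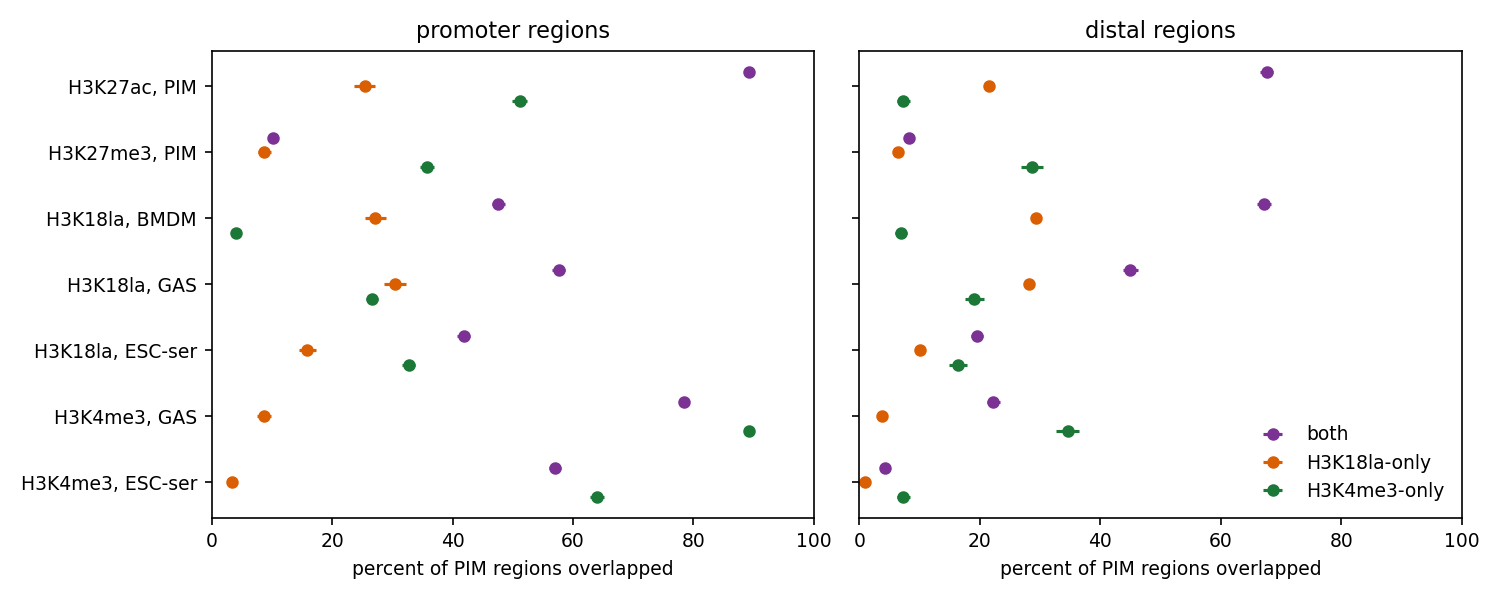
Percent of PIM promoter and distal regions (x axis) overlapped by peaks of other lists (y axis), with 95% Wilson intervals (bars, covering counting error only), by class. At distal sites 67.2% of regions with both marks, 29.3% of H3K18la-only regions and 6.87% of H3K4me3-only regions overlapped H3K18la of bone marrow-derived macrophages (BMDM).

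The classes also differed in how often they overlapped marks of other cells. H3K4me3-only promoter regions overlapped H3K4me3 of gastrocnemius muscle (GAS) in 89.2% of cases and that of embryonic stem cells in serum (ESC-ser) in 64.0%. Promoter regions with both marks did so in 78.4% and 56.96%. At distal sites the shares were lower in both classes, at 22.2% and 4.31% of regions with both marks and 34.6% and 7.20% of H3K4me3-only regions. Of distal regions with both marks, 74.9% had H3K4me3 in none of GAS, ESC-ser and ESC in 2i medium, as had 59.0% of distal H3K4me3-only regions. Distal regions with both marks overlapped H3K18la of macrophages grown from bone marrow in 67.2%, of GAS in 45.0% and of ESC-ser in 19.5% of cases. Distal H3K18la-only regions overlapped H3K18la of myotubes in 34.1%, of BMDM in 29.3% and of GAS in 28.2% of cases, and 32.7% had H3K18la in none of the 7 other cell types. Overlap was counted over the whole merged region. Distal regions with both marks were wider than H3K18la-only ones, and the part of width in these shares was not tested. H3K4me3-only promoter regions carried no H3K18la in PIM by definition, and 26.1% carried it in none of the 7 others, with 42.6% marked in white adipocytes (ADIPO) and 4.13% in BMDM. The H3K18la lists differ in the bases they cover, with 22.6 Mb in BMDM, 76.6 Mb in ADIPO, 82.4 Mb in ESC-ser, 123.1 Mb in GAS and 136.8 Mb in myotubes, so these shares cannot be ranked between cell types.

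The same comparison in other cells gave other shares at promoters, while at distal sites the order of extent was that of PIM. The values are shown side by side without a test because every cell type has 1 list per mark. Shared promoter regions had H3K4me3 wholly inside H3K18la in 31.9% of cases in GAS, 27.6% in ESC-ser and 71.7% in ESC-2i, against 12.4% in PIM. H3K18la lay wholly inside H3K4me3 in 21.98%, 28.9% and 4.14%, against 53.9%. At shared distal regions H3K4me3 lay wholly inside H3K18la in 75.8% in GAS, 55.9% in ESC-ser and 80.5% in ESC-2i, against 45.1% in PIM. The reverse held in 2.84%, 17.2% and 5.83%, against 17.5%. Distal regions with both marks made up 13.2%, 6.89% and 14.0% of distal regions, against 29.6% in PIM. The median width of all H3K18la peaks was 1615 bp in PIM, 2331 bp in GAS, 3183 bp in ESC-ser and 4595 bp in ESC-2i. ESC were assayed without isolating nuclei. The part of peak width and of the protocol in these values was not tested.

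The letters at the maxima differed between the classes. TGANTCA, which reads the same on both strands, stood in 32.9% (32.1 to 33.7) of 300-base windows at the maxima of distal H3K18la-only regions, in 33.9% (32.8 to 35.1) at the H3K18la maxima of distal regions with both marks and in 34.2% (32.3 to 36.0) at H3K18la-only promoter regions. The H3K4me3 maxima of distal regions with both marks held it nearly as often, in 30.6% (29.5 to 31.7). Promoter regions with both marks held it in 20.2% (19.4 to 21.1) at the H3K18la maxima and 15.2% (14.5 to 16.0) at the H3K4me3 maxima. It stood in 8.60% (7.53 to 9.79) at distal H3K4me3-only regions and in 4.63% (4.16 to 5.15) at H3K4me3-only promoters. Windows of the same length taken every 10000 bases of the genome held it in 8.89%, and 32402 RefSeq promoters (GRCm38) in 7.81%. Median GC content was 48.0% at distal H3K18la-only maxima and 50.3% at distal H3K4me3-only maxima, while 0.206% and 11.7% of these windows were rich in CpG as defined below and repeats made up 17.4% and 24.7% of their bases. The part of base composition in the motif shares was not tested. Distal H3K18la-only regions held the letters in 43.0% (41.2 to 44.9) where H3K27ac was called and in 30.1% (29.2 to 31.0) where it was not. A match is a string of letters and not evidence of binding.

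GAGGAAGT was likewise more frequent at distal maxima than in the genome windows (1.77%), at 10.6% in distal regions with both marks, 8.19% (7.73 to 8.68) in H3K18la-only and 7.29% (6.31 to 8.41) in H3K4me3-only ones. At promoters it stood in 8.03% (7.03 to 9.17) of H3K18la-only and 2.87% (2.50 to 3.29) of H3K4me3-only windows, beside 7.11% of H3K18la maxima and 6.62% of H3K4me3 maxima at shared promoters and 3.12% of RefSeq promoters. TTGCNNAA differed little between these distal classes, at 16.1%, 14.6% and 15.0% against 13.9% in the genome windows. At promoters it stood in 12.3% (11.0 to 13.6) of H3K18la-only and 8.79% (8.14 to 9.47) of H3K4me3-only windows. Shared promoters held it at 11.8% of H3K18la maxima and 10.9% of H3K4me3 maxima, beside 10.9% of RefSeq promoters. GGGCGGGG, bound by SP factors, was most frequent at promoters with H3K4me3. It stood in 19.5% of H3K4me3-only promoter windows, 12.2% of H3K18la maxima and 17.8% of H3K4me3 maxima at shared promoters, 6.03% of distal H3K4me3-only windows, 1.94% of H3K18la-only promoter windows and 1.38% of distal H3K18la-only windows, against 17.8% of RefSeq promoters. CCGGAAGT stood in 5.47% of H3K4me3-only promoter windows and 0.459% of distal H3K18la-only windows, against 3.94% of RefSeq promoters. CCAATCA, bound by NFY at many promoters, stood in 7.26% and 2.92%, against 7.81% of RefSeq promoters and 3.78% of the genome windows. GGGANTTCC of NF-kB stood in 1.78% of distal H3K18la-only and 1.26% of distal H3K4me3-only windows, against 0.729% of the genome windows. TGTGGTTT of RUNX stood in 3.24% and 3.67% of these, against 2.64%. TGACGTCA of CRE stood in 0.467% (0.363 to 0.602) of distal H3K18la-only windows and 0.156% of the genome windows, and the E-box CAGCTGTT in 2.03% (1.80 to 2.29) and 1.38%. CTAAAAATA of MEF2 stood in 0.705% (0.573 to 0.867) and 0.792%, and GCGCATGCG of NRF1 in 0.0396% and 0.0430%. Windows counted as rich in CpG had 50% GC or more and held CpG at 0.6 or more of the frequency that their C and G content gives. They made up 57.4% of H3K4me3-only promoter maxima, 42.6% of the H3K4me3 maxima and 30.6% of the H3K18la maxima at shared promoters, and 0.44% of H3K18la-only promoter maxima.

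Genes were classed by the marks within 2000 bp of any of their TSS. Of 21755 protein-coding genes, 7879 had both marks (36.2%), 5039 had H3K4me3 only (23.2%), 354 had H3K18la only (1.63%) and 8483 had neither (39%). Of the genes with either mark, 59.4% had both (58.5 to 60.2), and 23.6% did when lists were limited to their 5000 peaks of largest signal. A gene with H3K18la almost always had H3K4me3, in 95.7% of cases (95.2 to 96.1), while 61.0% (60.1 to 61.8) of genes with H3K4me3 had H3K18la. H3K27ac lay at 93.8% of genes with both marks, 61.1% of genes with H3K4me3 only and 21.8% of genes with H3K18la only. H3K27me3 lay at 16.4%, 36.9% and 35.03%. Genes with both marks had at least 1 distal H3K18la-only region nearest to them in 34.8% of cases, against 46.6% (41.5 to 51.8) of H3K18la-only genes, 17.5% of H3K4me3-only genes and 9.48% of genes with neither.

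Genes of macrophage identity carried both marks throughout. All 4 genes whose products defined the sort gate (Ptprc, Itgam, Adgre1 and Fcgr1) and all 20 other macrophage genes of the list had both, against the 36.2% of all genes. Base counts given for a gene are those of the largest region that touches its promoter windows. The macrophage regions were wide, with a median of 6267 bp of H3K18la and 6578 bp of H3K4me3, against 1933 and 3363 bp over all genes with both marks. Spi1, which encodes PU.1, had 12171 bp of H3K18la and 8690 bp of H3K4me3, and Csf1r, the receptor for the macrophage growth factor CSF1, had 7015 and 5692 bp. The transcription factor gene Cebpb had 9054 and 4930 bp, and the galectin gene Lgals3 had the widest H3K18la of the list with 20875 bp, beside 14713 bp of H3K4me3. H3K18la exceeded H3K4me3 at these 4 of the 20 genes, beside 15.5% of all genes with both marks. At Mertk, a receptor for dying cells, H3K18la was short at 726 bp against 3947 bp of H3K4me3, and at Cx3cr1, a receptor of resident and patrolling cells, it covered 1791 against 7073 bp.

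Inflammatory genes had H3K18la regions as wide as those of H3K4me3, with medians of 4488.5 and 4037 bp where both were present. Of 26 genes, 22 had both marks and 2 had H3K18la only, beside 36.2% and 1.63% of all protein-coding genes. H3K18la exceeded H3K4me3 at 12 of the 22, against 15.5% of all genes with both marks. They included Il1rn (8246 against 4961 bp), Nlrp3 (8055 against 4717 bp), Ccl2 (9681 against 6763 bp), Cxcl3 (5845 against 2735 bp) and Tnfaip3 (11983 against 9090 bp). Il1rn encodes the natural antagonist of interleukin 1, Nlrp3 an inflammasome sensor and Tnfaip3 a brake on NF-kB. Il1b, the cytokine itself, had the opposite order with 1687 and 2592 bp, as did Tnf with 3230 and 4316 bp. The 2 genes with H3K18la only were the T cell chemokine gene Ccl5 and Il12b, a subunit of interleukin 12, and Il1a and Nos2 had neither mark.

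Repair and resident genes were marked nearly as often, with both marks at 23 of 28, beside 36.2% of all protein-coding genes. Hmox1, which degrades haem, had 14525 bp of H3K18la and 12416 bp of H3K4me3. Il10, an anti-inflammatory cytokine gene, had 7590 and 5027 bp, and the lipid sensor gene Trem2 had 5034 and 4697 bp. The complement genes C1qa and C1qc shared 1 region of 5839 and 9433 bp. Chil3, Retnla, Mgl2 and Lyve1, markers of alternatively activated or resident macrophages, had neither mark, and Gas6, a bridge to dying cells, had H3K4me3 and H3K27me3 without H3K18la. H3K18la exceeded H3K4me3 at 5 of the 23, near the share of all genes with both marks.

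Most genes of antigen presentation and of glycolysis carried both marks, which 36.2% of all protein-coding genes did. Among 8 genes of MHC class II, 6 had both marks and H2-Aa and H2-DMb2 had H3K4me3 only, and H3K27ac lay at 3 of the 8. In the 6 the maximum H3K4me3 signal ran from 76 to 524. It was below the median of 367 for shared promoter peaks at 5 of the 6. The maximum H3K18la signal was 96 at H2-Eb1 and 94 at the invariant chain gene Cd74, and between 51 and 66 at the other 4, below the median of 75. Of 20 genes of glycolysis and lactate handling, 18 had both marks and all 20 had H3K27ac, which lay at 48.8% of all protein-coding genes. Gapdh, the standard glycolytic enzyme gene, had 3945 bp of H3K18la and 5957 bp of H3K4me3, and Ldha, which makes lactate, had 2562 and 4114 bp. H3K4me3 was the wider mark at 16 of the 18, and Pfkp and Pgam1 were the exceptions. Gpi1 and Pfkl had H3K4me3 without H3K18la. Hif1a, the hypoxia factor gene, had 921 bp of H3K18la against 3322 bp of H3K4me3.

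Further gene groups were counted in the same way, beside 36.2% of all genes with both marks. Of 12 genes for enzymes reported to write or erase acyl groups such as lactyl, 8 had both marks, whereas the acetyltransferase genes Ep300 and Crebbp and the deacetylase genes Hdac1 and Hdac3 had H3K4me3 only. Of 76 genes for cytosolic ribosomal proteins, 43 had both marks and 33 had H3K4me3 only, although 75 had H3K27ac. In the 43, H3K18la covered a median of 1714 bp and H3K4me3 4053 bp, and H3K18la was wider in 1 of them. Of 39 Hox genes, developmental regulators that are known targets of Polycomb, 19 had H3K4me3 only, against 23.2% of all genes, 18 had neither and 2 had both. H3K27me3 lay at 38 of them, against 26.4% of all protein-coding genes.

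Marker genes of other cells were marked in part. Both marks lay at 3 of 11 neutrophil genes (Csf3r, Mpo and S100a8), 2 of 11 T and NK cell genes (Cd3d and Il7r), 1 of 14 skeletal muscle genes (Tnni2), 3 of 8 endothelial genes (Cdh5, Pecam1 and Vwf, a share near that of all genes) and none of 5 B cell, 5 dendritic cell, 8 fibroblast and 6 erythroid genes. Myh1, Myh2, Myh4, Myod1 and Pax7 had neither mark. The granule genes Camp and Ngp of neutrophils also had neither. H3K18la stood alone at Ms4a1 (293 at its maximum), Ly6g (65), Klrb1c (56), Cxcr2 (55), Xcr1 (50) and Ltf (32). These are 3 of 11 neutrophil genes and 1 each of 11 T and NK cell, 5 B cell and 5 dendritic cell genes, beside 1.63% of all genes. H3K4me3 stood alone at 3 of 5 dendritic cell, 2 of 8 fibroblast, 2 of 6 erythroid and 2 of 14 skeletal muscle genes. It also did so at 1 gene of each of the neutrophil, T and NK cell, B cell and endothelial lists, beside 23.2% of all genes. A contribution of other cells to the regions was not tested.

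**Figure D5:**
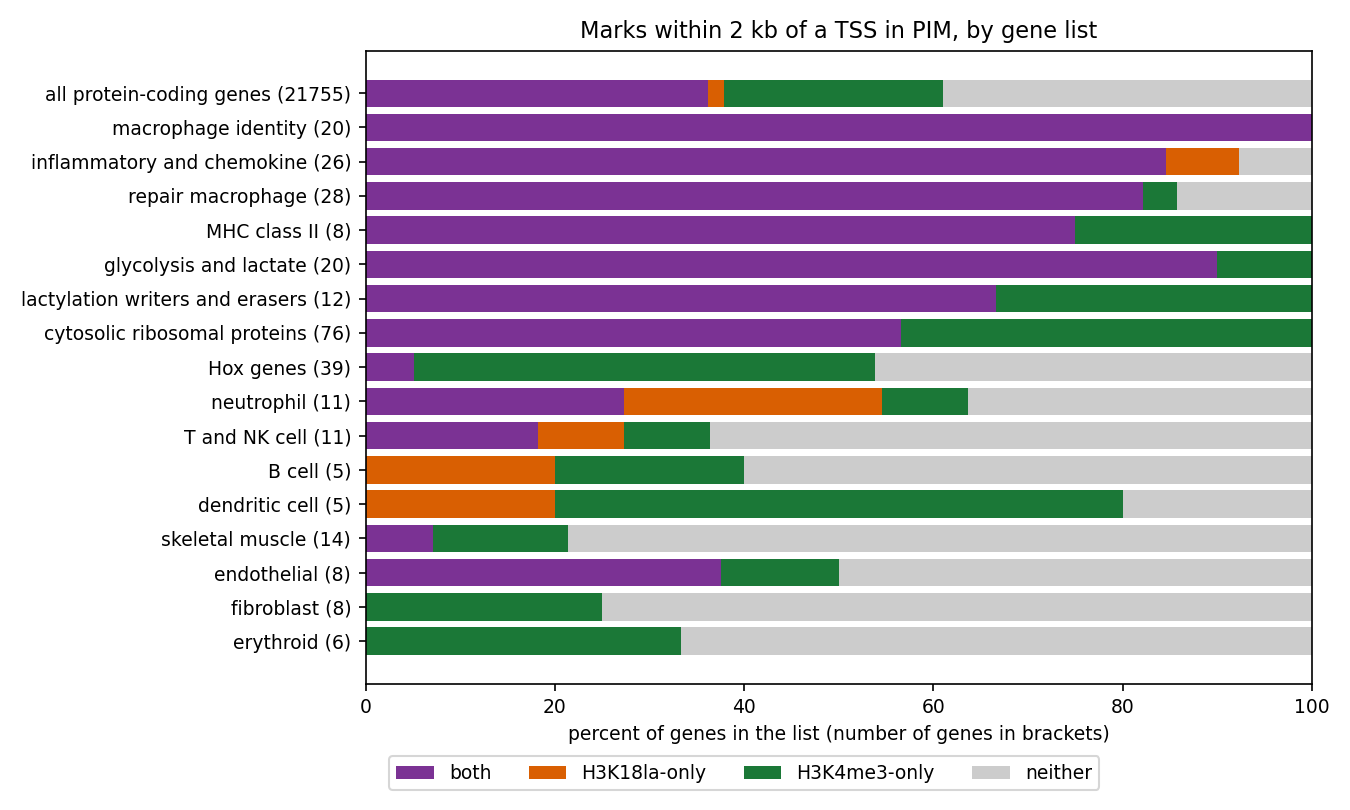
Percent of the genes of each list (x axis) with both marks, H3K18la only, H3K4me3 only or neither within 2000 bp of a TSS, with the number of genes in brackets. All 20 macrophage identity genes had both marks, against 36.2% of all protein-coding genes, and 19 of 39 Hox genes had H3K4me3 only.

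Distal H3K18la-only regions gathered around some of the same genes. They were nearest to 4588 protein-coding genes (21.1% of all), 703 of which had 5 or more. At least 1 was nearest to 14 of the 20 macrophage, 18 of the 26 inflammatory and 18 of the 28 repair genes, and to 8 of the 20 glycolysis and 11 of the 76 ribosomal genes. In this count the macrophage regulators Runx1 with 31 regions and Maf with 25 stood near the top of the macrophage list, and Cebpb had 12. Tlr4, the endotoxin receptor gene, had 18, Tnfaip3 17, Klf4 23, the matrix gene Thbs1 21 and the growth factor gene Igf1 18. Over all genes, Flrt3 had most with 45, followed by Lpp with 42, Rybp with 36 and Klf6 with 32. These counts also follow the distance between genes, which was not taken into account. Among lists of other cells, 5 of 8 endothelial, 3 of 5 dendritic cell, 2 of 11 neutrophil and 2 of 11 T and NK cell genes had at least 1. So did 2 of 8 fibroblast, 1 of 6 erythroid and 1 of 5 B cell genes, and none of the 39 Hox and 14 skeletal muscle genes did.

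The largest regions of each class were taken by total signal, the coverage summed over a peak. The 4 largest promoter regions with both marks were at Gm10800, Gm10801, Gm21738 and a cluster of predicted genes from Gm10722 on, and 68.9 to 96.2% of their bases were repeats. The 4 largest distal ones spanned 302 to 901 bp. These 8 regions were called in 23 or 24 of the 24 lists, H3K27me3 lists included, and they are not described further. In all, 50 regions were called in 20 or more lists. All of them were in the class with both marks and they held 8.95% of the total H3K4me3 signal and 5.43% of that of H3K18la.

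Without those 50 regions, an exclusion chosen after the values had been seen, the largest shared promoter regions included Ahnak, Ptpre and 2010111I01Rik. The region at Ahnak, a giant scaffold protein gene, lay at chr19:8979739-8999031 with 19054 bp of H3K18la and 18415 bp of H3K4me3. That at Ptpre, a tyrosine phosphatase gene, lay at chr7:135640349-135660262 with 19914 and 13555 bp. The largest shared distal region lay at chr9:123923111-123938728, 29964 bp from the chemokine receptor gene Ccr1, with 15618 bp of H3K18la around 10096 bp of H3K4me3. The next lay at chr17:84105358-84129251, 58696 bp from Zfp36l2, a regulator of mRNA decay, with 23213 and 16479 bp. The remaining 3 of these 8 were at the pseudogene Pisd-ps2 and nearest to Klf14 and Tcp10c.

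H3K18la-only regions reached considerable widths without any H3K4me3 call. The largest distal region spanned 22174 bp at chr16:3641351-3663524, 48953 bp from the olfactory receptor gene Olfr161, with a maximum signal of 247. The next was 11520 bp wide at chr17:48191263-48202782 (maximum 330), followed by the region of 8476 bp near Gpc1 whose sequence is given above (maximum 717) and 13082 bp at chr2:167737161-167750242, 48246 bp from Cebpb (maximum 348). All 4 lay outside protein-coding genes, and all 4 carried H3K27ac in PIM and H3K18la in BMDM. At promoters the largest H3K18la-only regions lay at Plxnd1, a semaphorin receptor gene (10171 bp), and at Ms4a1 (10089 bp). The next lay within Il1rl2 at the noncoding gene Gm17970 (6162 bp) and at a noncoding transcript of Sgms1 (4313 bp). The Sgms1 region lay 63209 bp from the nearest TSS of a protein-coding transcript, and all 4 regions carried H3K27ac.

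The 4 largest H3K4me3-only promoter regions lay at Dach1 (5124 bp, maximum 742), Rrs1 and Adhfe1 (5046 bp, maximum 2808), Shox2 and Rsrc1 (11610 bp, maximum 594) and Epha7 (4879 bp, maximum 1359). Dach1 and Shox2 encode transcription factors of development and Epha7 an ephrin receptor. H3K27me3 overlapped these 3 regions and not that at Rrs1, and H3K27ac overlapped those at Dach1, Rrs1 and Shox2. The largest distal H3K4me3-only regions had no H3K27ac in any of the 4 cases, and the first of them, 16534 bp within Flg2, was 82.0% repeats.

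Single promoters with both marks showed how far the extents could part. Among shared promoter regions at or above the median of both total signals, the log2 ratio of H3K18la to H3K4me3 bases was largest at Dusp27 and Gpa33 (2.47, 15970 against 2887 bp), at Spaca6 (1.94, 16696 against 4340 bp) and at the noncoding genes Gm14488 and Mir3089 (1.68, 12851 against 4015 bp). It was smallest in the region with Trmt1, Lyl1 and Nfix (-2.63, 2011 against 12413 bp), at Srd5a1 and Nsun2 (-2.60, 648 against 3928 bp) and at Cep57 and Fam76b (-2.46, 894 against 4905 bp). These regions were selected for their ratios, and the Spaca6 region is among those called in 20 or more lists. Without such regions the medians moved slightly and the smallest ratios were -2.93 at Smc2 (445 against 3401 bp), -2.86 at Rtn4rl2 (1194 against 8691 bp) and that at Trmt1. The 3rd largest was then 1.51, at the noncoding genes Gm41043 and Gm47533.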

How the data were processed

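CUT&Tag was performed on nuclei of sorted PIM with antibodies against H3K18la and H3K4me3, 2 samples each, with sodium butyrate in the buffers. The authors trimmed reads with Trim Galore 0.6.6, aligned them to mm10 with Bowtie2 2.4.4, computed coverage with bedtools 2.30, combined replicates and called peaks with SEACR 1.3, stringent mode, top 1%, no control. The deposited lists give, per the authors' methods, a maximum signal (coverage) and a total signal, used as a score of summed coverage. Neither is scaled for depth, and the number of reads per sample was not analysed here. Per the study's methods, peaks in blacklisted regions were removed. The lists used here still held regions called in nearly every list, and no blacklist was applied. Every list is pooled over the samples of its group, and no column holds a single sample's values where a group has replicates.

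TSS came from 139486 transcripts (GENCODE vM21, mm10), and sequence from RefSeq GRCm38.p6, whose chromosome lengths held all peaks. Merging, overlap and shares were computed with Python 3.11.15, numpy 2.4.6, pandas 2.3.3 and scipy 1.17.1 and figures with matplotlib 3.10.9. The functions were tested on simulated lists and against bedtools 2.31.1 and gave equal counts. Shares carry 95% Wilson intervals, and the interval of a difference combines 2 of them (Newcombe). No test was run because replicates were pooled before peak calling. Regions were named by total signal, 4 per class, and by the ratio of bases, 3 at each end, and members of the macrophage, inflammatory, repair, MHC class II and glycolysis lists could be named. Genes of the other lists and those nearest to most distal H3K18la-only regions were named after their values had been seen. The 12 motifs were searched on both strands, with matches of different motifs allowed to overlap. The classes, gene lists and alternatives were chosen with earlier results of these data known. Other choices of promoter window, TSS set, overlap, joining and peak threshold were tried.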

Additional observations from a re-analysis of the deposited data

How the results depend on the processing

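The share of promoter regions with both marks, the share of distal regions with both marks, the log2 width ratio, the share of shared promoters with H3K4me3 wholly inside H3K18la, the share of marked genes with both marks and the H3K27ac difference were recomputed under 8 alternatives, and the width ratio and the H3K27ac difference kept their sign in all of them. The largest promoter class was that with both marks in the main setting and H3K4me3-only among the 5000 peaks of largest signal and among peaks at or above the median maximum. Values outside the counting interval were as follows. With a promoter window of 1000 bp, the promoter share was 50.9%, the width ratio -0.86, the nested share 10.8% and the gene share 58.1%. With only protein-coding transcripts giving TSS, the promoter share was 51.3%, the distal share 31.6%, the width ratio -0.98, the nested share 6.49% and the gene share 58.0%. With peaks within 1000 bp joined, they were 52.7%, 31.2%, -0.70 and 14.0% for the first 4. With the lists reduced to equal bases, the promoter share was 47.1%, the distal share 31.7%, the width ratio -0.75, the nested share 13.2%, the gene share 55.7% and the H3K27ac difference 36.6 points. With the 5000 peaks of largest signal per list, these were 22.5%, 6.18%, -0.23, 13.2%, 23.6% and 4.66 points. With peaks at or above the median maximum signal, the promoter share was 37.8%, the distal share 15.3%, the nested share 9.23%, the gene share 44.0% and the H3K27ac difference 15.3 points. The last 2 settings hold fewer peaks by construction, and a shared region that lost the peaks of 1 mark to the cut counts there as having the other only. An overlap of at least 50% of the shorter peak left all 6 within their intervals, and so did leaving out the regions called in 20 or more lists, which was chosen after seeing the data. The opposite order of nesting held under every alternative. H3K4me3 lay wholly inside H3K18la in 41.8 to 46.4% of shared distal regions, against 16.3 to 22.5% for the reverse, and H3K18la lay wholly inside H3K4me3 in 34.6 to 60.5% of shared promoter regions. No paired analysis was possible because the replicates of each mark were pooled before peaks were called, and for the same reason no replicate could be left out. The number of reads per sample was not analysed here, and a region without a mark is one that was not called above the threshold of that list.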
